A study of Mus musculus with 9 samples.

Results

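The genes described here encode the enzymes that write, copy and remove methylation at CpG sites in mouse DNA. They are Dnmt1, Dnmt3a, Dnmt3b, Dnmt3l, Uhrf1, Tet1, Tet2, Tet3, Tdg and Mbd4, chosen by name and by role. They are 10 of the 20665 autosomal protein-coding genes listed by RefSeq for GRCm38.p6, which is the mm10 assembly. Each was taken from its gene start to its gene end with 5 kb added on both sides, which holds 8796 CpGs, 8044 of them read in all 3 libraries. Methylation was read by whole-genome bisulfite sequencing, in which unmethylated cytosines are converted and methylated ones are not. The cells were splenic B cells, purified by magnetic depletion of other cells from mice without treatment, and their strain and age are not stated in the labels. The mice carried no copy (WT), 1 copy (HET) or both copies (HOM) of a missense change of Kmt2d, Ile5482Asn, at position 98835228 of chromosome 15. Kmt2d encodes a histone methyltransferase that marks enhancers with H3K4 monomethylation. The table names the HET and HOM columns with ENU, a chemical mutagen, and the WT column without it, so induced changes elsewhere in the genome cannot be told apart from the Kmt2d change. The labels list 2 B cell samples per genotype, and the table has a single set of counts for each genotype, here named a library. Differences below therefore compare 3 libraries, with no replicate check.

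DNA methylation is set by de novo methyltransferases and copied to the new strand after replication. DNMT3A and DNMT3B add methyl groups to unmethylated CpGs, and DNMT3L, a relative without catalytic activity, stimulates them in germ cells. DNMT1 restores methylation on hemimethylated DNA, to which UHRF1 brings it. TET1, TET2 and TET3 oxidise 5-methylcytosine, TDG excises the later oxidation products, and MBD4 removes thymine that arises by deamination of 5-methylcytosine. In haematopoietic cells DNMT3A and TET2 are known as frequent targets of mutation in leukaemia, and TET2 loss is also seen in B cell lymphoma. Bisulfite sequencing does not separate 5-methylcytosine from 5-hydroxymethylcytosine, the first TET product, so a methylation level below covers both.

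The libraries differed in depth and in overall level. The mean number of reads per CpG was 9.18 for WT, 12.9 for HET and 9.85 for HOM, and the level in the open sea, over 4000 bp from any CpG island, was 81.6%, 80.9% and 78.1%. In the gene bodies of the 10 genes the mean was 10.6, 15.1 and 12.0 reads per CpG, and in their start windows it was 6.63, 9.955 and 8.77. The cell type was checked at the CpG-richer ends of marker genes. B cell markers had a median level of 49.2%, 36.1% and 41.2% in WT, HET and HOM, against 52.8%, 64.8% and 54.1% for T cell markers, 69.1%, 68.8% and 70.8% for myeloid markers, 83.2%, 67.2% and 86.1% for NK cell markers and 33.5%, 36.3% and 32.9% for markers of erythroid cells and platelets. The single genes of the B cell list ranged from 9.42% to 92.2% in WT and so overlapped the other lists. The share of other cells and its part in the differences below was not tested.

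The sequence in front of the annotated starts frames what follows, because the start windows at 20% or more were the 4 with the fewest CpGs. RefSeq gives 17 starts for the 10 genes. The 250 bases that precede 7 of them are printed 5′ to 3′ in the direction of transcription, with each CpG in capitals, from the RefSeq promoter table of GRCm38.p6. They show the CpG-rich inner start and the CpG-poor upstream start of Dnmt1, the CpG-rich start of its partner Uhrf1, the CpG-poor start of Dnmt3l, and the starts of Tet1, Tet2 and Mbd4, which differ in level or in CpG number.
Dnmt1 inner start, chr9:20952624-20952873, minus strand: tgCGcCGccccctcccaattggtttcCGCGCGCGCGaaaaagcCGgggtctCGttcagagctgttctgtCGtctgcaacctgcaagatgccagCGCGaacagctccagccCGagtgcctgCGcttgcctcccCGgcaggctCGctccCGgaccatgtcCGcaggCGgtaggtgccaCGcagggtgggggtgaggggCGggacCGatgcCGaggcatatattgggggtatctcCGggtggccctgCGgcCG
Dnmt1 upstream start, chr9:20959889-20960138, minus strand: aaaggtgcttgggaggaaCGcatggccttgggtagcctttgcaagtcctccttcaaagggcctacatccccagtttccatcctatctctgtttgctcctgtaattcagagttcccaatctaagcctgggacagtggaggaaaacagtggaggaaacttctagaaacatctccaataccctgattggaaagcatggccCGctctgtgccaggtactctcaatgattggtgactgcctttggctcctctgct
Uhrf1 inner start, chr17:56304063-56304312, plus strand: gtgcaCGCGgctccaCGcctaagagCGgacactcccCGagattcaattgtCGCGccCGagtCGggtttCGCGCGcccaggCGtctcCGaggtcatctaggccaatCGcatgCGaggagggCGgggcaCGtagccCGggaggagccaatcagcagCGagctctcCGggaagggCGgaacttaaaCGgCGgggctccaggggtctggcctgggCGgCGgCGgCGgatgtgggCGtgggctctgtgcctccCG
Dnmt3l first start, chr10:78042037-78042286, plus strand: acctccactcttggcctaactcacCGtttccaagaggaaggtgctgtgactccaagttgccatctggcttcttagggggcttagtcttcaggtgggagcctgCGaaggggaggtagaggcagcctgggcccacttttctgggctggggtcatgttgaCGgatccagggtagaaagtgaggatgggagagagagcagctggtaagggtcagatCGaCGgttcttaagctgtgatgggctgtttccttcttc
Tet1 start, chr10:62887325-62887574, minus strand: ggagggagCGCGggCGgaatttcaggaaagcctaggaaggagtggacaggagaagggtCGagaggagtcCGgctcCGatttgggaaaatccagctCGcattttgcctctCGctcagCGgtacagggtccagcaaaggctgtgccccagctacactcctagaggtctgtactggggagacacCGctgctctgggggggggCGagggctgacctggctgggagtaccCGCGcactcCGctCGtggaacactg
Tet2 start, chr3:133544391-133544640, minus strand: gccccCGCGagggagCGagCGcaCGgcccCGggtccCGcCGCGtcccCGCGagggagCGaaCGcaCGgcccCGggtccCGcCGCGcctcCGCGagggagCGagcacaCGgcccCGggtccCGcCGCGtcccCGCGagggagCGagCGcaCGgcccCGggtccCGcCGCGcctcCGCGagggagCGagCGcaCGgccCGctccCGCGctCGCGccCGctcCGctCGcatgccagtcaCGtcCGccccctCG
Mbd4 start, chr6:115853342-115853591, minus strand: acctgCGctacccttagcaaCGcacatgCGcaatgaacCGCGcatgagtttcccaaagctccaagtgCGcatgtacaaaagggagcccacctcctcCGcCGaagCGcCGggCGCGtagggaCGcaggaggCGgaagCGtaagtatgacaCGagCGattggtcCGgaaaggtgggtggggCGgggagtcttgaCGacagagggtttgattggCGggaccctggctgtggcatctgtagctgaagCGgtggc

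These windows hold 26, 2, 30, 5, 15, 51 and 22 CpGs in the order printed. The Tet2 window is among the CpG-richest in the genome, since 99.9% of the 20085 autosomal RefSeq windows of this length hold fewer. A search of both strands for the GC box GGGCGG, read CCGCCC on the other strand, found it in 12 of the 17 windows and in 43.4% of all windows. The E-box CACGTG was in 3 of the 17 and in 6.69% of all. The letters TTTCGCGC, a common form of the E2F site and GCGCGAAA on the other strand, were in 2 of the 17 and in 0.378% of all. Those 2 are the inner starts of Dnmt1 and Uhrf1, the partners of maintenance methylation. Their E2F matches begin at -219 bp and -185 bp from the start. The first CpG of each match had 0 methylated reads in all 3 libraries, of 21 reads for WT, 25 for HET and 31 for HOM over both matches. A match is a stretch of letters and not a measured binding site.

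At 11 of the 17 starts, in 7 of the 10 genes, the window from 250 bp before to 50 bp after the start was below 2% methylated in all 3 libraries. With 10 CpG reads and 3 CpGs required, this was 11 of 15 windows, beside 55.9% of the 16025 windows of all genes. The start windows of Tet1 and Tet3 lay between, and 4 windows, 1 of Dnmt1 and 3 of Dnmt3l, were at 20% or more. With the same reads and CpGs required, 2 windows were at 20% or more. No start window of these genes was called in any comparison, where a call needs a difference of at least 10 percentage points and a Benjamini-Hochberg adjusted p below 0.05 in Fisher's exact test, two-sided, of the summed reads, adjusted over all windows of the class. Over all genes 0.43% of start windows were called in HOM against WT, 0.321% in HET against WT and 0.547% in HOM against HET. Of the members' windows, 12, 12 and 14 had enough reads and CpGs to be tested. Their differences ran from -4.76 points at Tet3 to 13.6 at Dnmt3l in HOM against WT, from -2.69 at Tet3 to 0.735 at Uhrf1 in HET against WT, and from -2.06 at Tet3 to 13.1 at Dnmt3l in HOM against HET. In the Dnmt3l window the share of reads on its more methylated CpGs differed between the libraries, as given below. The profile of levels around the starts shows the unmethylated valleys and their methylated flanks.

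**Figure D1:**
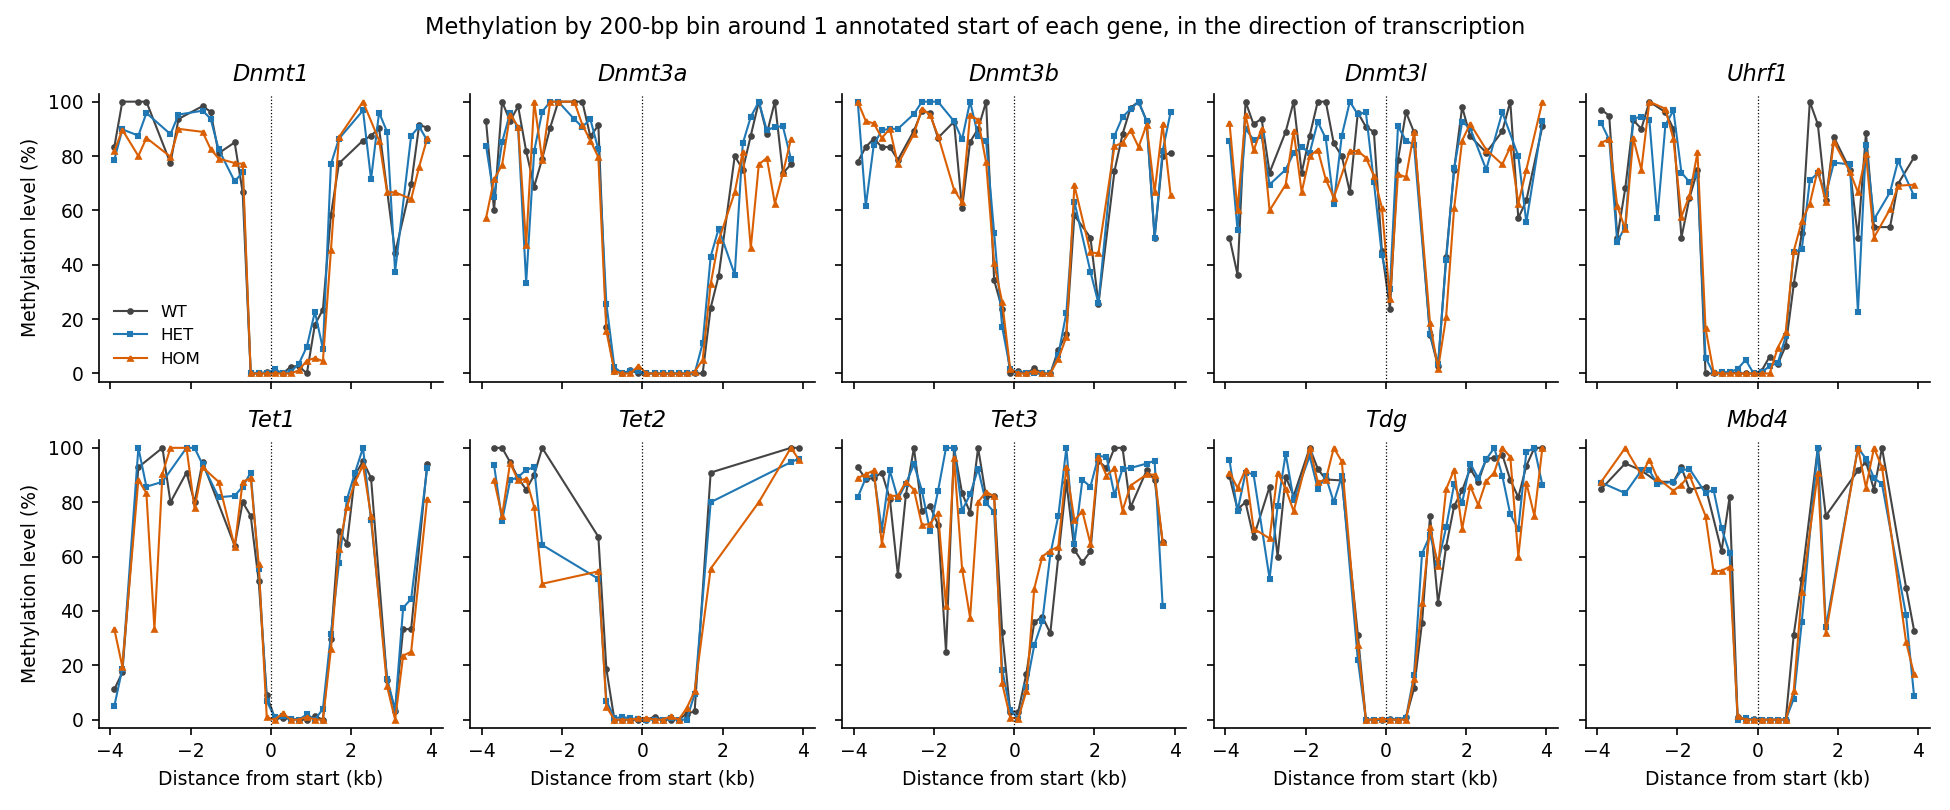
Methylation level (y axis, % of CpG reads) in bins of 200 bp by distance from an annotated start (x axis, kb, negative upstream) for the start with most CpGs of each gene, with 1 line per library and bins under 5 reads left out. All genes but Dnmt3l show an unmethylated valley at the start, and in Dnmt3l the level is partial at the start and the valley lies over 1 kb downstream, at the start of the neighbour Aire.

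A gene body here is the span without 500 bp at each end and without island CpGs, and its level is the share of methylated reads summed over its CpGs. Across the 10 gene bodies HOM was below WT in 10 as measured, and above WT in 7 and below in 3 when the libraries were scaled to equal open sea levels. The median was -1.53 points as measured, beside -3.20 over 18209 bodies, 88.0% of which were below 0, and 1.84 points when scaled, beside 0.192. The bodies that stayed below WT were Dnmt3l, Tet2 and Mbd4, at -1.11, -0.972 and -3.76 points when scaled, so the directions given below for the other 7 bodies in HOM hold as measured only. HET was above WT in 5 and below in 5, with a median of 0.145 points beside -0.532 over all bodies. HOM against HET had a median of -2.07 points beside -2.62, with 8 members below 0, and 0.837 points with 3 below 0 when scaled. No member body was called in HOM against WT, where 2.88% of all bodies were, and none in HOM against HET, where 1.93% were. In HET against WT, where 1.15% of all bodies were called, it was 1 of 10, Mbd4. The plot of body differences shows the members scattered around the median of all genes in HOM against WT, from Mbd4 at -6.32 to Dnmt3a at -0.395 as measured. Other limits of the region also moved single values. Over the span with 5 kb on each side, ends and islands included, HOM minus WT was 2.12 points at Tdg, -0.188 at Tet1, -0.937 at Dnmt3l, -3.84 at Uhrf1 and -4.35 at Dnmt3b. These spans add unmethylated islands, whose share of reads differed between libraries. The Dnmt3b island took 441 of 5990 span reads for WT and 749 of 7113 for HOM. The Tdg island took 960 of 4205 for WT and 789 of 4110 for HOM. The part of these shares in the span values was not tested.

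**Figure D2:**
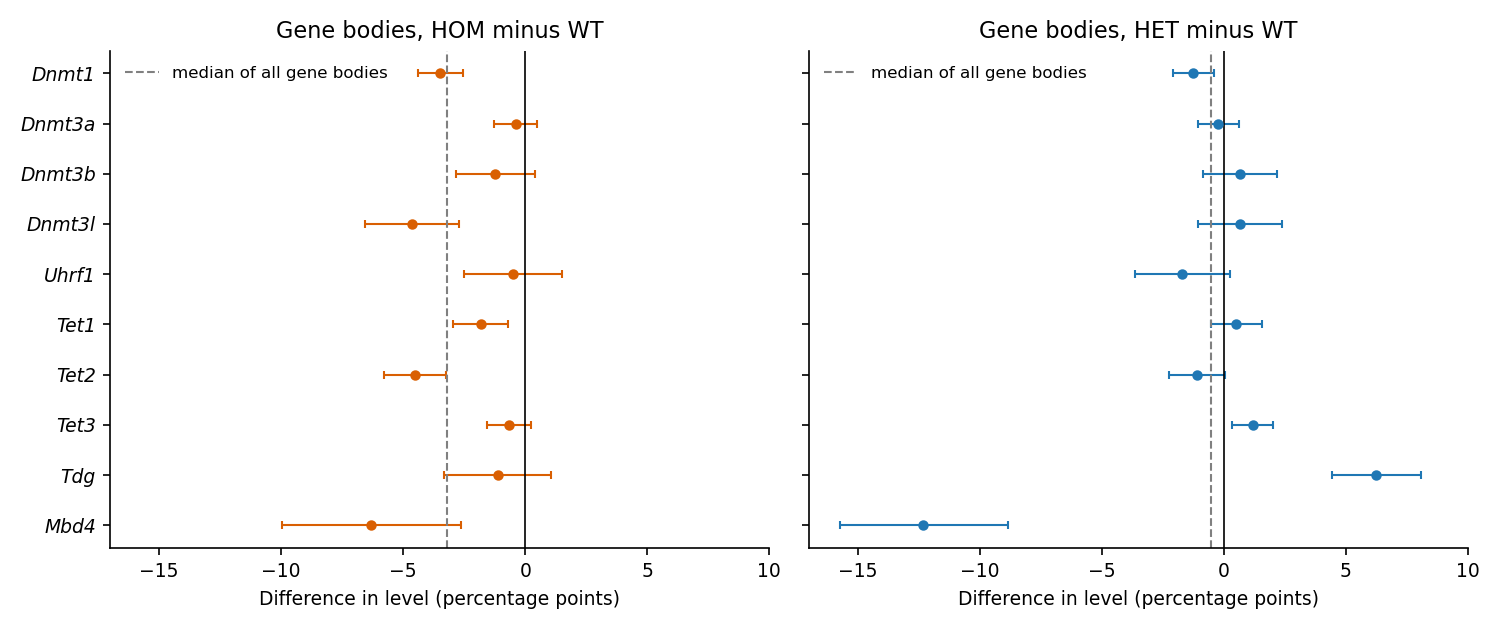
Difference in gene body level (x axis, percentage points) between HOM and WT and between HET and WT for each gene, with 95% Newcombe counting intervals as bars and the median of all gene bodies as a dashed line. In HOM minus WT all 10 points lie below 0 as measured (3 of 10 when scaled to equal open sea levels), and in HET minus WT Tdg lies at 6.23 and Mbd4 at -12.3.

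Reads that cover neighbouring CpGs are not independent, and 11 of the 12 calls described below rest on counting each CpG of a read by itself. Divided by the mean number of CpGs that a read of 150 bp covers, the counts kept 1 call, the Mbd4 body in HET against WT (adjusted p = 0.00830, Fisher's exact test). The other 11 had adjusted p from 0.808 to 1 in that test. Reads were sequenced in pairs, and this division still counts both reads of a pair as independent.

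The maintenance methyltransferase Dnmt1 had unmethylated inner starts and a methylated upstream start. The gene lies on chromosome 9 from 20907206 to 20959888 on the minus strand. At the inner start at 20952623 there was 1 methylated read of 370 for WT, 0 of 487 for HET and 0 of 495 for HOM, and a count of 0 allows up to 0.616% in HET and 0.606% in HOM. The next inner start, 356 bp upstream, had 0 of 62, 1 of 219 and 0 of 98. The upstream start, 7265 bp from the first, was 97.9%, 94.9% and 88.5% methylated on 47, 78 and 61 reads of 2 CpGs, too few CpGs for a test. In mouse the oocyte form of Dnmt1 is known to start upstream of the somatic form, and the RefSeq table does not say whether this is that start. The Dnmt1 body was the most methylated of the 10 in WT and HOM, at 89.45% for WT, 88.2% for HET and 86.0% for HOM. HOM minus WT was -3.48 points, with a 95% Newcombe counting interval, as for all intervals of differences below, of -4.40 to -2.56, near the median over all gene bodies, and 0.293 points above WT when scaled. A run of low methylation just inside the gene, 579 bp past the start, held 8.22%, 12.5% and 4.24%, and HOM minus HET was -8.23 points (interval -12.2 to -4.31), under the 10 points of a call.

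Uhrf1, which recruits DNMT1 to hemimethylated CpGs, was unmethylated at both of its starts. The gene lies on chromosome 17 from 56303337 to 56323486 on the plus strand, and its starts are 976 bp apart within 1 island of 107 CpGs. The first start window had 0 of 183 reads methylated for WT, 1 of 136 for HET and 2 of 221 for HOM. The inner one, whose sequence is printed above, had 0 of 151, 2 of 306 and 0 of 282. The island as a whole was at 0.216%, 1.10% and 0.0740%. The body was 79.9%, 78.2% and 79.4% methylated in WT, HET and HOM, and each pair of libraries had an interval that included 0. All 4 low-methylated runs of Uhrf1 were higher in HOM than in WT, by 3.19 to 15.4 points, and none was called. The fourth lies 3613 bp downstream, in the neighbour Kdm4b.

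Dnmt3a, a de novo methyltransferase, had the most called low-methylated runs of the 10 genes and, with Tet1, the most runs, 9 in each. Of the Dnmt3a runs 1 was called in HOM against WT, 1 in HET against WT and 3 in HOM against HET. Of all tested runs 5.19%, 4.22% and 5.29% were called. The Dnmt3a gene lies on chromosome 12 from 3801559 to 3914443 on the plus strand. Its 3 annotated starts were unmethylated, though the CpG-rich sequence was thinly read. The upstream pair, 180 bp apart, had 1 of 144, 1 of 158 and 2 of 109 reads methylated at the first and 0 of 13, 0 of 89 and 0 of 95 at the second. The inner start at 3891744, from which the shorter isoform Dnmt3a2 is known to be transcribed, had 0 of 24, 0 of 56 and 0 of 51, and a count of 0 allows 12.5%, 5.36% and 5.88%. The body level was 78.9% for WT, 78.7% for HET and 78.5% for HOM, with HOM minus WT at -0.395 points (interval -1.27 to 0.486). Without the low-methylated runs described next it was -1.555 points (interval -2.37 to -0.734), with each CpG counted once, whatever its reads, -1.32 points, and scaled to equal open sea levels HOM was 3.01 points above WT.

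Just downstream of the inner start of Dnmt3a lies a pair of adjoining low-methylated runs in which HOM was the highest library. The run from 3892382 to 3892545, 638 bp past the start, held 17 of 101 reads methylated for WT (16.8%), 46 of 174 for HET (26.4%) and 49 of 132 for HOM (37.1%). HOM was 20.3 points above WT (interval 8.79 to 30.7, adjusted p = 0.0186, Fisher's exact test), and the 17.1 points left with only CpGs of at least 5 reads in every library did not pass. That setting leaves out the last CpG of the run, 800 bp past the start, which had no reads in WT. The run from 3892572 to 3893207 held 18.5%, 15.2% and 26.2% on 232, 376 and 279 reads, and HOM was 11.01 points above HET (interval 4.77 to 17.4, adjusted p = 0.0184, Fisher's exact test). WT and HET changed order between the runs. The stretch around the start whose running level over 5 CpGs stayed below 50% reached 1702 bp downstream in WT and in HET and 738 bp in HOM. That end in HOM rests on a pair of CpGs, the first of them without reads in WT. The CpG at 800 bp was at 58.8% in HOM on 17 reads, with 47.8% in HET and no reads in WT, and the one at 828 bp was at 89.5% in HOM on 19 reads, with 3 of 10 reads methylated in WT. Past them HOM was low again, at 5% to 38.5% per CpG to the end of the second run.

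Further runs of Dnmt3a lie far from any start. A run of 4 CpGs from 3852692 to 3852836, at -38908 bp from the inner start, had 11 of 66 reads methylated for WT, 3 of 43 for HET and 18 of 48 for HOM. HOM was 30.5 points above HET (interval 13.6 to 45.4, adjusted p = 0.0214, Fisher's exact test), and with only CpGs of at least 5 reads in every library, or with 60 reads required, this run could not be tested. Past the gene's end, 3264 bp downstream of it, the run from 3917707 to 3918233 was lowest in HET. It held 52 of 176 reads methylated for WT (29.5%), 24 of 244 for HET (9.84%) and 61 of 256 for HOM (23.8%). HET minus WT was -19.7 points (interval -27.5 to -12.1, adjusted p = 6.81e-05) and HOM 14.0 points above HET (interval 7.49 to 20.4, adjusted p = 0.001715), both by Fisher's exact test. Of its 11 CpGs with at least 5 reads in both libraries, 10 were lower in HET than in WT and 1 was equal. Of the 8 runs inside the gene, HOM was above WT in 7 and above HET in 8, and HET was above WT in 4. That count is a description of runs in 1 gene that share their libraries, and it carries no test.

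The other de novo genes had no called low-methylated run. Dnmt3b, on chromosome 2 from 153649411 to 153687730, had 1 of 111, 4 of 256 and 2 of 161 reads methylated at its start in WT, HET and HOM. Its body was 79.55%, 80.2% and 78.3% methylated, with HOM minus WT at -1.24 points (interval -2.84 to 0.379). Without its low-methylated runs HOM minus WT was -2.41 points (interval -3.91 to -0.897), and with each CpG counted once -2.85 points. Dnmt3l, which is expressed mainly in germ cells, lies on chromosome 10 from 78042287 to 78063622. Its first start window held 5 CpGs before the start, was 48.1%, 48.6% and 61.6% methylated on 104, 138 and 73 reads, and HOM was 13.6 points above WT with an interval of -1.325 to 27.5. Within it the 2 CpGs farthest upstream were 87.2%, 80.4% and 81.8% methylated and the 4 nearer ones 24.6%, 26.8% and 31.0%. The 2 farther CpGs took 39 of the 104 reads for WT, 56 of 138 for HET and 44 of 73 for HOM. The part of these shares in the window's differences was not tested. Its inner starts had 3, 1 and 3 reads at 78049842 and 19, 26 and 29 reads at 78055335, where the level was 89.5%, 96.2% and 89.7%. The Dnmt3l body was 84.8%, 85.5% and 80.2% methylated, with HOM minus WT at -4.65 points (interval -6.58 to -2.72). HOM minus HET was -5.325 points (interval -7.12 to -3.55), and -2.46 points when scaled to equal open sea levels.

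The single island in the Dnmt3l span is the start of the neighbour Aire, which encodes a regulator of tolerance in thymic epithelium and overlaps Dnmt3l. This island of 25 CpGs was 2.54%, 4.09% and 1.52% methylated. The 500 bp beyond its right edge, 1397 bp inside Dnmt3l and 74 bp before the Aire start, had 113 of 176 reads methylated for WT (64.2%), 123 of 191 for HET (64.4%) and 65 of 155 for HOM (41.9%). The WT and HET levels were 0.193 points apart, and the interval of that difference, -9.51 to 9.94, included 0. HOM minus WT was -22.3 points (interval -32.3 to -11.5, adjusted p = 0.00975) and HOM minus HET was -22.5 points (interval -32.3 to -11.9, adjusted p = 0.00777), both by Fisher's exact test. With the border taken as 200 bp, no border of the 10 genes was called in these comparisons, with 15 and 16 borders tested beside 26. The bin of 200 bp that begins 1400 bp past the first Dnmt3l start covers nearly the same stretch. It was at 42.7% for WT, 41.6% for HET and 20.7% for HOM on 89, 89 and 82 reads.

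Among the erasers, Tet1 had a partly methylated upstream side at its start and the most contrasting runs. The gene lies on chromosome 10 from 62804570 to 62887469 on the minus strand. Its start window was 11.2% methylated for WT, 8.51% for HET and 10.1% for HOM on 161, 188 and 208 reads. The 9 CpGs farthest upstream were at 12.4%, 12.9% and 13.3%, and the 8 nearer or downstream ones at 9.38%, 1.39% and 0%, the last being 0 of 50 reads. Its unmethylated stretch reached 241 bp upstream in all 3 libraries, and 1656, 1703 and 1656 bp downstream. The body was 78.2%, 78.7% and 76.3% methylated, with HOM minus WT at -1.825 points (interval -2.94 to -0.705).

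Inside Tet1, 21203 bp past the start, lies a run of 32 CpGs from 62864994 to 62866121 that was more methylated in HOM. It held 36 of 480 reads methylated for WT (7.50%), 38 of 486 for HET (7.82%) and 88 of 483 for HOM (18.2%). WT and HET were 0.319 points apart (interval -3.09 to 3.72). HOM was 10.7 points above WT (interval 6.54 to 14.9, adjusted p = 8.25e-05) and 10.4 points above HET (interval 6.20 to 14.6, adjusted p = 0.000165), both by Fisher's exact test. Of 29 CpGs with at least 5 reads, 15 were higher in HOM than in WT, 5 were lower and 9 were equal, and the plot of called runs shows most of the higher values in the last part of the run, next to CpGs that were methylated in all libraries. A shorter run from 62847341 to 62847589, 39735 bp past the start, went the other way. It had 23 of 52 reads methylated for WT (44.2%), 29 of 109 for HET (26.6%) and 7 of 67 for HOM (10.4%). HOM minus WT was -33.8 points (interval -48.2 to -17.9, adjusted p = 0.00203, Fisher's exact test), and with at least 60 reads required it could not be tested. All 5 CpGs of this run with at least 5 reads in both libraries were lower in HOM than in WT. The 9 runs of Tet1 had no common direction, with 5 above 0 and 4 below in HOM against WT.

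**Figure D3:**
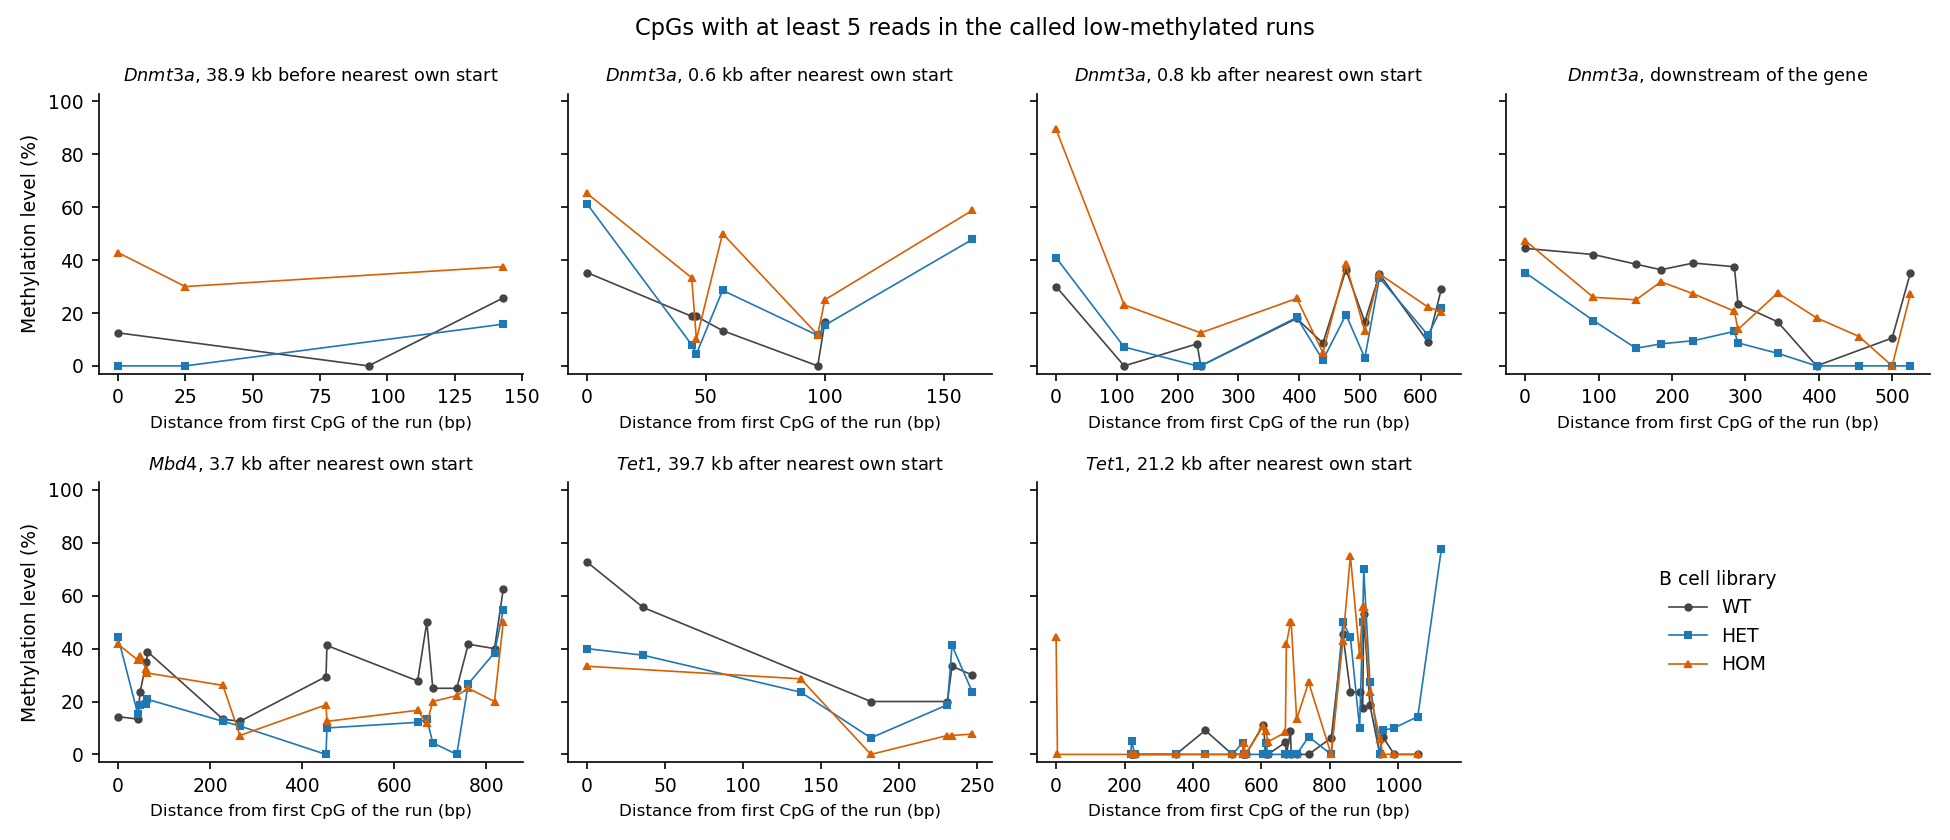
Methylation level (y axis, %) of each CpG with at least 5 reads along the 7 called low-methylated runs, by distance from the first CpG of the run (x axis, bp), with 1 line per library. HOM lies highest at most CpGs of the Dnmt3a runs inside the gene, single CpGs of the longer Tet1 run stand out in HOM, and HET lies lowest at most CpGs along the Dnmt3a run downstream of the gene.

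Tet2, which oxidises 5-methylcytosine in blood cells, was unmethylated across its start. It lies on chromosome 3 from 133463677 to 133545136 on the minus strand. The start window of 58 CpGs had 0 of 219 reads methylated for WT, 1 of 563 for HET and 2 of 329 for HOM. Its island of 118 CpGs was at 0.170%, 0.350% and 0.289%. The border upstream of the island stood at 36.1% for WT, 22.3% for HET and 15.9% for HOM on 119, 224 and 88 reads, and the difference of -20.2 points between HOM and WT did not pass (interval -31.1 to -8.11, adjusted p = 0.07175, Fisher's exact test). The Tet2 body was 85.1%, 84.0% and 80.6% methylated, with HOM minus WT at -4.53 points (interval -5.81 to -3.255).

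Tet3 had an unmethylated island at its annotated start and a larger one upstream. The gene lies on chromosome 6 from 83362373 to 83457208 on the minus strand. The start window at 83441678 was 6.50% methylated for WT, 3.81% for HET and 1.75% for HOM on 123, 315 and 229 reads, and the interval of HOM minus WT was -10.7 to -0.619. Its 7 CpGs farthest upstream held 8 of 35, 6 of 106 and 4 of 65 methylated reads. The larger island, of 165 CpGs at -14179 bp from that start, lies at the gene's upstream end and was at 0.620%, 0.392% and 0.497%. The promoter table gives no start there. A further pair of islands inside the gene, with 32 and 20 CpGs, was methylated at 89.5% to 96.9% in all libraries. The Tet3 body was 82.1%, 83.2% and 81.4% methylated, with HOM minus WT at -0.657 points (interval -1.55 to 0.240), and at -1.36 points (interval -2.23 to -0.481) without its low-methylated runs. Of the 5 runs of Tet3, HET was above WT in 5 and HOM above WT in 4, and none was called.

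The highest and the lowest body difference in HET against WT fell on the repair genes. Tdg, the glycosylase for oxidised methylcytosine, lies on chromosome 10 from 82629814 to 82650799 on the plus strand. Its start window had 1 of 388 reads methylated for WT, 0 of 339 for HET and 1 of 358 for HOM. The body had 1895 of 2275 reads methylated for WT (83.3%), 3222 of 3599 for HET (89.5%) and 1903 of 2316 for HOM (82.2%). HET stood above the other libraries. HET minus WT was 6.23 points (interval 4.42 to 8.08, adjusted p = 5.17e-10) and HOM minus HET was -7.36 points (interval -9.23 to -5.53, adjusted p = 1.715e-14), both by Fisher's exact test and both under the 10 points of a call. In 10 slices of at most 2 kb the interval of HET minus WT lay above 0 in 5 and below 0 in none, with slice differences from -1.31 to 14.3. With each CpG counted once HET minus WT was 2.75 points and HOM minus HET -3.87 points. Over the span with 5 kb on each side, ends and islands included, they were 13.7 and -11.6 points, a region that was not among the classes tested. In that span the unmethylated island at the Tdg start took 960 of 4205 reads for WT. It took 670 of 5697 for HET and 789 of 4110 for HOM, and its part in the differences was not tested.

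Mbd4, the glycosylase for thymine opposite guanine, had the single called gene body. It lies on chromosome 6 from 115840697 to 115853400 on the minus strand. Its start, printed above, lies where the neighbour Ift122 also overlaps, and the start window had 1 of 502 reads methylated for WT, 0 of 587 for HET and 0 of 672 for HOM, and a count of 0 allows 0.511% and 0.446%. The body had 826 of 1310 reads methylated for WT (63.1%), 968 of 1908 for HET (50.7%) and 817 of 1440 for HOM (56.7%). HET minus WT was -12.3 points (interval -15.7 to -8.85, adjusted p = 3.76e-10), HOM minus WT was -6.32 points (interval -9.96 to -2.65) and HOM was 6.002 points above HET (interval 2.59 to 9.39), by Fisher's exact test. The share of reads near the start differed between the libraries. The slice of the body next to the start, at 17.7%, 10.02% and 13.02% methylation, took 19.4% of the body's reads for WT, 26.7% for HET and 21.9% for HOM. In 6 slices of at most 2 kb the interval of HET minus WT lay below 0 in 4 and above 0 in none, with slice differences from -18.8 to 5.29. With each CpG counted once HET minus WT was -3.97 points, without the low-methylated runs -4.45 points (interval -7.69 to -1.14), and over the span with 5 kb on each side -0.882 points. HOM minus HET was 0.375, -0.926 and -1.62 points under these settings, so its direction depended on them. Within the body the run from 115848790 to 115849628, 3713 bp past the start, had 70 of 230 reads methylated for WT (30.4%), 54 of 340 for HET (15.9%) and 73 of 286 for HOM (25.5%). HET minus WT was -14.6 points (interval -21.7 to -7.53, adjusted p = 0.00332, Fisher's exact test), and 14 of its 16 CpGs were lower in HET.

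**Figure D4:**
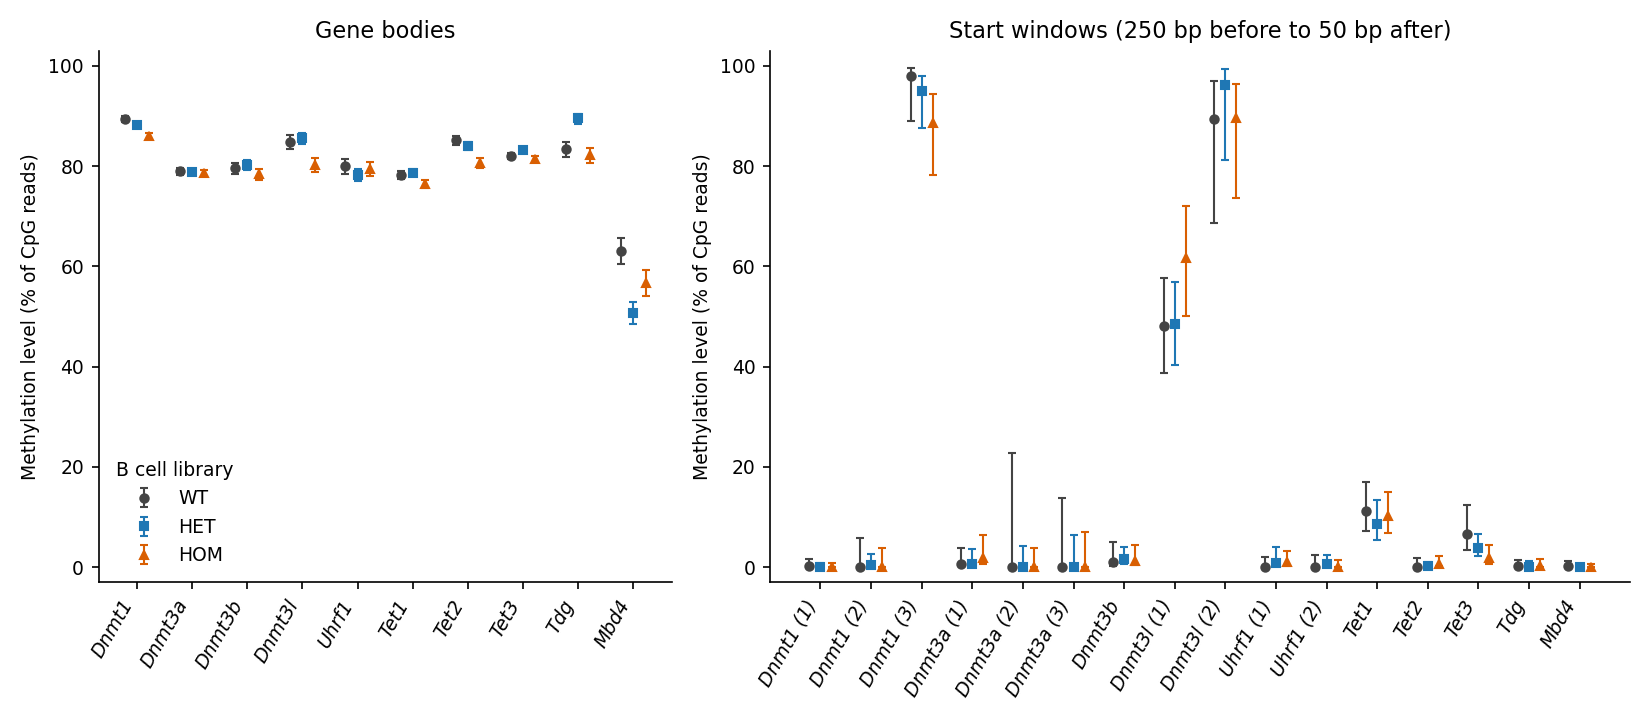
Methylation level (y axis, % of CpG reads) of gene bodies and of start windows with at least 10 reads in every library, for WT, HET and HOM, with 95% Wilson counting intervals as bars. Starts of a gene are numbered by position on the chromosome, so Dnmt1 (3) is its upstream start, and the bodies lie between 50.7% and 89.5% while most starts lie near 0.

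Gene ends held no call as measured. The CpG-richer end, from 1000 bp outside to 500 bp inside the span, holds the start in Dnmt3b, Dnmt3l, Uhrf1, Tet1, Tdg and Mbd4, and 0 of 10 were called in each comparison, beside 4.72% of all such windows in HOM against WT, 2.73% in HET against WT and 3.83% in HOM against HET. The differences from WT ran from -7.82 points at Tet2 to 5.57 at Tet1 in HOM, and from -3.50 at Tet2 to 5.02 at Tet1 in HET. In HOM against HET they ran from -8.16 at Dnmt3a to 1.92 at Dnmt3b. At the other end again 0 of 10 were called in each comparison, beside 5.04%, 1.77% and 4.44% of all windows. With counts scaled to equal open sea levels 1 was called in HOM against HET, beside 547 of 18351 windows of all genes. There the differences ran from -9.07 at Tet2 to 1.71 at Tdg in HOM against WT, from -8.73 at Dnmt3l to -0.996 at Tet1 in HET against WT, and from -2.87 at Tet3 to 9.70 at Dnmt3l in HOM against HET. HET was below WT at this end in 10 of 10 genes, with a median of -4.50 points beside -0.598 over all genes, 55.3% of which were below 0, and the interval lay off 0 in 2 of them.

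Of 26 outer borders, the 500 bp beyond the edges of unmethylated islands, 1 was called in HOM against WT and 1 in HOM against HET, the same Dnmt3l region beside Aire, and 0 in HET against WT. Over all genes 1.37%, 1.33% and 0.836% of borders were called in these comparisons. The highest difference in HET against WT was at the right edge of the upstream Dnmt3a island, with 26 of 112 reads methylated for WT (23.2%), 68 of 161 for HET (42.2%) and 40 of 128 for HOM (31.25%). The 19.0 points between HET and WT did not pass (interval 7.68 to 29.35, adjusted p = 0.0817, Fisher's exact test), and the 8.04 points between HOM and WT were the highest of that comparison. The lowest difference in HET against WT was -14.1 points at Dnmt1 (interval -31.7 to 3.12), and the highest in HOM against HET was 17.04 points at the same border (interval 1.94 to 31.8).

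The 40 low-methylated runs of the 10 genes are stretches of at least 4 CpGs, outside islands and their borders, in which the mean of the libraries, averaged over 3 neighbouring CpGs, stayed under 50%. In HOM against WT 3 of 35 tested runs were called, 2 higher and 1 lower, or 8.57%, beside 5.19% of all runs. In HET against WT 2 of 36 were called, both lower, or 5.56% beside 4.22%. In HOM against HET 4 of 37 were called, all higher, or 10.8% beside 5.29%. With 2 to 4 calls in a comparison, these shares are not read as particular to the 10 genes. Of all called runs, 2186 of 3489 were higher in HOM against WT and 2340 of 3665 higher in HOM against HET. In HET against WT 1627 of 2899 were lower. Among tested runs the differences ran from -33.8 at Tet1 to 20.8 at Dnmt3a in HOM against WT, from -19.7 at Dnmt3a to 14.9 at Uhrf1 in HET against WT, and from -16.2 at Tet1 to 30.5 at Dnmt3a in HOM against HET. The median difference over the tested runs was 3.33 points in HOM against WT, 1.15 in HET against WT and 3.45 in HOM against HET, beside 0.231, 0.165 and 0.1135 over all tested runs.

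**Figure D5:**
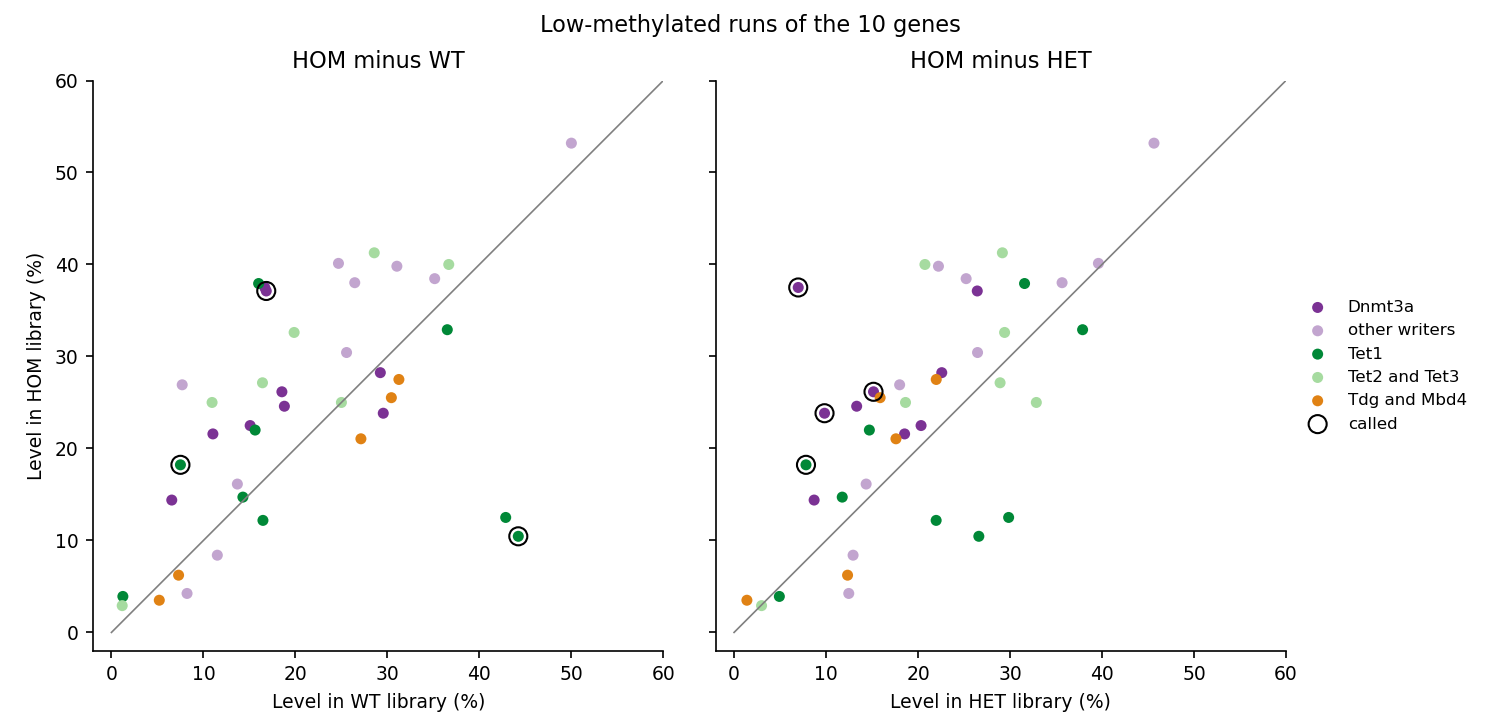
Methylation level of the 40 low-methylated runs in HOM (y axis, %) against WT and against HET (x axes, %), coloured by gene or group of genes, with rings around the called runs and the line of equal levels. The Dnmt3a runs lie above the line of equality against HET, and the Tet1 runs lie on both sides of it.

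The wider pathway was read in 43 other genes, of which the 40 on autosomes were tested. At their CpG-richer ends 1 was called in HOM against WT, 1 in HET against WT and 3 in HOM against HET, beside 4.72%, 2.73% and 3.83% of all such ends. None of these calls remained with counts per read. Zbtb4, a reader of methylated CpGs, was at 6.96% for WT, 34.55% for HET and 12.5% for HOM, and HET was 27.6 points above WT (adjusted p = 6.03e-14, Fisher's exact test). This end had 316, 275 and 297 reads in WT, HET and HOM. The Zbtb4 start window inside it was at 0%, 0% and 1.16% on 86, 28 and 86 reads. The part of the spread of reads in the Zbtb4 difference was not tested. Uhrf2, a relative of Uhrf1, was at 21.3% for WT, 18.6% for HET and 8.54% for HOM, and HOM minus WT was -12.7 points, with an adjusted p of 7.76e-13 by Fisher's exact test. Neil2, a glycosylase of base excision repair, stood at 40.0%, 45.1% and 33.5% in WT, HET and HOM. In gene bodies 3 were called lower in HOM than in WT, the repair genes Apex1 and Neil1 and the oocyte factor Dppa3, and 1, Neil1, lower in HET than in WT, beside 2.88% and 1.15% of all bodies. So few calls are not read as particular to the list or to a role in it. With counts per read the adjusted p of Neil1 in HOM against WT was 0.0398, and it was 0.0578 for Neil1 in HET against WT, 0.168 for Dppa3 and 0.391 for Apex1, by Fisher's exact test. The Neil1 body was 72.7% methylated for WT, 60.2% for HET and 62.4% for HOM. The median body difference of the 40 genes was -2.86 points in HOM against WT, -0.912 in HET against WT and -2.255 in HOM against HET. None of their start windows was called.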

How the data were processed

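Whole-genome bisulfite libraries of mouse splenic B cells were analysed as 1 deposited table of methylated read counts and covering read counts per CpG, with 1 pair of columns for each of 3 genotypes, per the file headers. Whether a pair holds 1 sample or pools the 2 listed for its genotype is not stated in the labels or headers. Per the submitters' processing notes, the tools named were Trim Galore 0.2.8, Bismark, Bowtie2, BWA 0.7.13, MethylDackel and Picard 1.91 and 2.3.0, with mm10. Which of them made the table is not stated. Paired 150 bp reads were sequenced, per the labels' protocols. The B cell-depleted blood samples were not analysed here.

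Reads were summed over regions with Python 3.11.15, NumPy 2.4.6, pandas 2.3.3, SciPy 1.17.1 and Numba 0.67.0, and plotted with matplotlib 3.10.9. Regions were gene bodies, both gene ends (1000 bp outside to 500 bp inside the span), 500 bp outside unmethylated islands, low-methylated runs and start windows, on autosomes. A region was tested from 3 CpGs and from 30 CpG reads in each of both libraries. Pairs of libraries were compared by a two-sided Fisher's exact test, adjusted by Benjamini-Hochberg over all regions of a class, and called below 0.05 with at least 10 points. Wilson and Newcombe 95% intervals and limits for a count of 0 (3 counts) cover counting error only, and they count the CpGs of a read as independent. The script was tested on simulated data. Simulated calls covered the CpG-richer gene ends in HOM against WT, with CpG reads drawn as independent. They cannot show how linked CpGs of a read affect the calls. Every member was named, with each called region in full and the highest and lowest difference of each class. Members and lists were chosen with earlier results of these data known. Start windows, bodies without runs and the rule for short islands were added after seeing the data. Alternatives were CpGs with at least 5 reads, at least 60 reads, at least 20 points, counts per read, equal open sea levels, means over CpGs and other region limits. A total of 200824258, 282430649 and 215454437 CpG reads was used in WT, HET and HOM.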

Additional observations from a re-analysis of the deposited data

How the results depend on the processing

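Scaling to equal open sea levels moved the members' median body difference to 1.84 points in HOM against WT and to 0.837 in HOM against HET. With at least 20 points required, the calls at the 10 genes went from 3 to 0 in HET against WT and from 5 to 2 in HOM against HET. With counts per read they went from 4 to 0 in HOM against WT, from 3 to 1 in HET against WT and from 5 to 0 in HOM against HET. The other 23 alternatives for these medians and totals stayed within the limits set for them. Among them, counts scaled to equal open sea levels took the calls in HOM against HET from 5 to 7. Runs cut at 30% held 0, 2 and 2 calls in HOM against WT, HET against WT and HOM against HET. Borders of 200 bp held 0, 0 and 0 of 15, 15 and 16 tested, and borders of 1000 bp 4, 1 and 2 of 27 tested in each. The cause of these shifts was not tested. Depth limits the start windows, where a member CpG had 6.63 reads in WT, beside 10.6 in the gene bodies. No paired analysis was possible because the table gives 1 set of counts per genotype, and for the same reason no replicate could be left out.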

Other observations

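CpGs with 8 or more reads in all 3 libraries, each library at or under 10% or at or over 80% and at least 1 library on each side, numbered 0 of 4455 in the spans of the 10 genes with flanks and 304 of 8881811 on all autosomes. The unmethylated island on the Kdm4b side of Uhrf1, with 105 CpGs, was at 0.144% for WT, 0.280% for HET and 0.330% for HOM.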
